A study of Mus musculus with 7 samples.

Results

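The genes described here encode the Wnt ligands, the Frizzled receptors, the R-spondins, the co-receptors Lrp5 and Lrp6, the receptors Ror1, Ror2 and Ryk, and Porcn. They were taken by symbol from tables of 23235 gene symbols and number 39: 19 ligands, 10 Frizzled receptors, 4 R-spondins and 6 others. Transcripts were measured by RNA sequencing in 7 cultured kidneys of C57BL/6 mouse fetuses. In all 7, beta-catenin, which carries the canonical Wnt signal to the nucleus, was activated. E2-2, an E protein transcription factor encoded by Tcf4, was deleted in 3 of them (E2-2 deleted replicates 1 to 3) and wildtype in 4 (E2-2 wildtype replicates 1 to 4). The pregnant mice were injected with 2 mg of tamoxifen per 40 g of body weight at 10.5 days post coitum, the day of dissection, and the kidneys then spent 3 to 4 days in culture. The sources used here do not give the recombinase line, the alleles or the culture time of each kidney. No kidney without activated beta-catenin was among the samples, so every difference below is between genotypes that share the activation. The comparison asks how transcripts differ when E2-2 is deleted on that shared background.

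Wnt proteins are secreted, lipid-modified signals, and Porcn is the enzyme of the endoplasmic reticulum that attaches the lipid. At the cell surface a Wnt binds a Frizzled receptor together with Lrp5 or Lrp6, which stabilises beta-catenin, or it binds Ror or Ryk receptors and signals without beta-catenin. R-spondins raise the amount of Frizzled at the membrane by drawing away the ubiquitin ligases that remove it. In the embryonic kidney, Wnt9b and Wnt11 come from the ureteric bud, Wnt9b induces nephron progenitors to form tubules, and Wnt4 carries out the change of these cells from mesenchyme to epithelium.

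Levels are FPKM (fragments per kilobase of a transcript, corrected for library size) and may be compared between genes because they are per length. Differences are E2-2 deleted minus E2-2 wildtype on the log2(FPKM + 1) scale, where the change of low genes comes out too small. Depth, inferred from the deposited intervals, was 14.5 to 26.6 M fragments per library. Tcf4 itself was at 33.5 to 42.0 FPKM in the deleted libraries and 28.7 to 58.1 in the wildtype libraries. The deleted exons are not given, so a whole-gene value does not check the genotype. Ctnnb1, the beta-catenin gene, was at 512, 636 and 579 FPKM in the deleted libraries. In the wildtype libraries it was at 511, 507, 415 and 408. The groups did not overlap, though deleted replicate 1 and wildtype replicate 1 were close. The Ctnnb1 difference was 0.33 (SE 0.18; exact permutation p = 0.114), and 0.25 without deleted replicate 2. Whether the activation was equally strong in both genotypes was not tested. Markers of nephron progenitors, ureteric bud and renal stroma were found in every library. E2-2 deleted replicate 2 stood apart: it had the lowest value of 44.4% of all genes tested, and its nephron progenitor markers summed to 52.3 FPKM against 122 to 275 in the other libraries. E2-2 wildtype replicate 3 had the lowest sum of ureteric bud markers, 104 FPKM against 254 to 396 elsewhere. The deposited names of 4 libraries (deleted 1 and 2, wildtype 1 and 2) begin with BI and of 3 (deleted 3, wildtype 3 and 4) with BM. What the letters stand for is not given, and values within each are printed where they bear on a result. In whole kidneys, fewer cells of a type and less RNA per cell cannot be told apart.

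As a class, the Wnt ligands had the largest median difference between the genotypes, 0.52, against -0.18 to 0.27 in the other classes of member. Wnt6 and Wnt10a had the largest single differences, and the receptor gene Fzd10 the next, at 1.18. Of the 14 ligands with a mean of at least 1 FPKM, 12 had a higher mean in the E2-2 deleted kidneys, and Wnt6, Wnt10a, Wnt10b and Wnt4 had all 3 deleted libraries above all 4 wildtype libraries. Groups separated in that direction in 2.84% of all 13466 genes tested and in the opposite direction in 2.05%, with no member among the latter. Wnt2b and Wnt5a were also higher on average, with groups that overlapped, while the ureteric bud ligands Wnt11, Wnt7b and Wnt9b differed by less than the spread between libraries. Of the 14, 6 had a limma p under 0.05 before adjustment, all of them higher, where 3.29% of all genes tested were called higher and 1.2% lower by the same rule. None passed after adjustment over all genes tested (adjusted p = 0.795 for each of the 6).

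**Figure D1:**
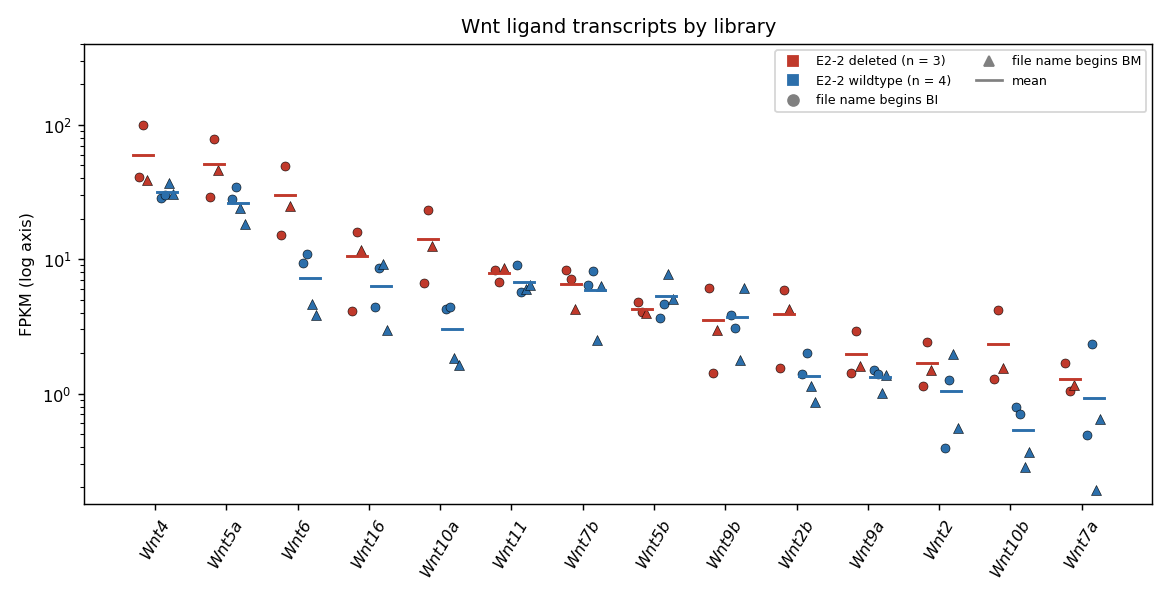
FPKM on a log axis of the 14 tested Wnt ligand genes, ordered by mean level. Each point is a library (red, E2-2 deleted; blue, E2-2 wildtype; circles and triangles, file names that begin with BI and BM) and each bar a group mean. Red points lie above all blue points for Wnt4, Wnt6, Wnt10a and Wnt10b.

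Wnt6 and Wnt10a had the largest differences of the 14 ligands on the log2(FPKM + 1) scale. As ratios of means, Wnt10a stood at 4.67, Wnt10b at 4.37 and Wnt6 at 4.16. Wnt6, a ligand of embryonic epithelia (chromosome 1, 74818466 to 74831893 in the deposited tables, which name no build), was at 15.3, 49.6 and 24.9 FPKM in E2-2 deleted replicates 1 to 3 and at 9.44, 10.9, 4.603 and 3.82 in E2-2 wildtype replicates 1 to 4. All deleted libraries lay above all wildtype libraries, deleted replicate 2 was the highest, and wildtype replicates 3 and 4 were the lowest. The means were 29.9 ± 17.7 (SD, n = 3) and 7.19 ± 3.51 (SD, n = 4), a difference of 1.86 (SE 0.45, 95% confidence interval 0.82 to 2.91; limma p = 0.00349, adjusted p = 0.795, exact permutation p = 0.0286, the smallest that 35 splits allow). Its adjusted p was 0.290 to 1.00 over the alternative fits. Wnt10a, a ligand needed for teeth and other skin appendages (chromosome 1, 74838593 to 74850749), was at 6.66, 23.3 and 12.5 FPKM in the deleted libraries and at 4.24, 4.44, 1.82 and 1.63 in the wildtype libraries. The libraries stood in the same order as for Wnt6, again without overlap. The means were 14.2 ± 8.44 (SD, n = 3) and 3.03 ± 1.51 (SD, n = 4), a difference of 1.83 (SE 0.43, 95% confidence interval 0.84 to 2.83; limma p = 0.00296, exact permutation p = 0.0286).

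The pair are neighbours, 6.70 kb apart in the deposited loci. Their levels kept close to a fixed ratio: Wnt6 was 1.99 to 2.52 times Wnt10a in the 7 libraries, while Wnt6 itself ranged 13.0-fold. Of the 13466 genes tested, 11 others besides Wnt6 had its exact order of libraries, among them Wnt10a and, outside the members, the Wnt inhibitor gene Apcdd1 and the R-spondin receptor gene Lgr6, both named here after their values were seen. The differences of Wnt6 and Wnt10a were 1.36 and 1.35 within the BI libraries and 2.31 and 2.31 within the BM libraries, where the choice of genes without overlap fixes the sign. Without deleted replicate 2 they were 1.43 and 1.42, and the mean levels in the remaining deleted libraries were 20.1 and 9.58 FPKM. Without deleted replicate 1 both were 2.25. Both genes kept a limma p under 0.05 in all 13 alternative fits.

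Wnt10b, a ligand that favours bone over fat formation (chromosome 15, 98602183 to 98608581), was the third ligand with a severalfold gap, at a low level. It was at 1.27, 4.21 and 1.55 FPKM in the deleted libraries and at 0.796, 0.700, 0.283 and 0.370 in the wildtype libraries. These values rest on 15 to 153 inferred fragments per library. The groups did not overlap, and the 2 BM wildtype libraries were again the lowest. The means were 2.35 ± 1.62 (SD, n = 3) and 0.537 ± 0.249 (SD, n = 4), and on the log2 scale they differed by 1.03 (SE 0.31, 95% confidence interval 0.31 to 1.76; limma p = 0.0115, exact permutation p = 0.0286). Without deleted replicate 2 the difference was 0.66 and the gene's overall mean fell under 1 FPKM. Its own neighbour, Wnt1, 11.7 kb away, was listed at 0 in all 7 libraries.

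Wnt4, the ligand of tubule formation (chromosome 4, 136833550 to 136855416), had the highest mean of all 19 ligands. It was at 41.1, 99.98 and 39.0 FPKM in the deleted libraries and at 28.7, 30.3, 36.8 and 30.5 in the wildtype libraries. The groups did not overlap, but deleted replicate 3 and wildtype replicate 3 were close, and the mean rested on deleted replicate 2. The means were 60.01 ± 34.6 (SD, n = 3) and 31.6 ± 3.62 (SD, n = 4), a difference of 0.77 (SE 0.31, 95% confidence interval 0.05 to 1.49; limma p = 0.0382, exact permutation p = 0.0286). With deleted replicate 2 left out it was 0.34, and the BI and BM libraries alone gave 1.10 and 0.21. The limma p was under 0.05 in 7 of 13 alternative fits. It was not with the letters as a term, with median-of-ratios scaling, with no filter, or without wildtype replicate 1, 2 or 4. Most other early nephron markers did not share its direction: 7 of 8 had a negative difference, where 39.3% of all genes tested had a positive one. Only Fgf8 had a limma p under 0.05. Without deleted replicate 2 the 7 differences ranged from -0.46 (Fgf8) to -0.08 (Wt1). The list's sum was lowest, 143 FPKM, in deleted replicate 2, where Wnt4 was highest.

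The windows around the transcription starts of these genes are shown because E2-2 binds E-box motifs and beta-catenin acts through TCF/LEF factors, so their letters bear on both proteins of the design. RefSeq windows on GRCm38.p6, from 250 bases before to 50 after the start, were at hand for 26 of the 39 genes, and windows of Wnt10a and Wnt5a were not used here. Each is printed 5′ to 3′ on the gene's strand, with matches to the E-box CANNTG in capitals. No match to the TCF/LEF motif (CTTTG, then A or T at each of the next 2 bases, either strand) lay in these 4.
Wnt6, chr1:74771642-74771941, plus strand: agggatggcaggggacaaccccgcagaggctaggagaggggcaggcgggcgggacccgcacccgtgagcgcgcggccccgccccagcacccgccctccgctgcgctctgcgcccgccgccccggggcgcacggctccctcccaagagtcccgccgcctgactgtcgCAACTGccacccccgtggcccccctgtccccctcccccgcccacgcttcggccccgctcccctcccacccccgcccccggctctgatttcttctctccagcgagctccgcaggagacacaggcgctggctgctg
Wnt10b, chr15:98778101-98778400, minus strand: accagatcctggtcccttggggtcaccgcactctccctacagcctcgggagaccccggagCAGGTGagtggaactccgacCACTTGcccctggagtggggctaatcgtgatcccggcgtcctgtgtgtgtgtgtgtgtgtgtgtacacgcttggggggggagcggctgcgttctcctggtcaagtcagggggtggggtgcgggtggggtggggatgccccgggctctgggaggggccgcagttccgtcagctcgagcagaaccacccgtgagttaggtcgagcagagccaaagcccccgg
Wnt4, chr4:137277385-137277684, plus strand: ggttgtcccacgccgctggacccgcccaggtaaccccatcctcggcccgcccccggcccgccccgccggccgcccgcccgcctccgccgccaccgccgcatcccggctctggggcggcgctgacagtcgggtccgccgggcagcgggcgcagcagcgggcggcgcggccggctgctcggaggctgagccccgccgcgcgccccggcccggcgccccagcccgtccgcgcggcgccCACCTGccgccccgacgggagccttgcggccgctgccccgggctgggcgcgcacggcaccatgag
Fzd10, chr5:128600856-128601155, plus strand: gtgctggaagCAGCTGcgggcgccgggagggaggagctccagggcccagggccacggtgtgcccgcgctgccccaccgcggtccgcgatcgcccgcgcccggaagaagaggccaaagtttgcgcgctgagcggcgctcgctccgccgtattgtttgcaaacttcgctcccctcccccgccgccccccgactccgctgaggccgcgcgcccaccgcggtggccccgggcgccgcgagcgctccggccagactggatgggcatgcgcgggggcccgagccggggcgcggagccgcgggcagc
The Wnt6 window held 1 E-box, CAACTG, 84 bases before the start. That of Wnt10b held 2, CAGGTG and CACTTG, 190 and 170 bases before it. The Wnt4 window held CACCTG, which reads CAGGTG on the other strand, and that of Fzd10 held CAGCTG. Such matches are common: CANNTG occurred in 72.3% of all 32851 windows and in 72.4% of the 29 windows of the members, and CAGGTG on either strand in 20.2% and 27.6%. The TCF/LEF motif occurred in 16.9% and 13.8%. A match is a run of letters and does not show binding.

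Wnt5a and Wnt2b, both made by mesenchyme in many organs, had higher means in the deleted kidneys with groups that overlapped. Wnt5a, which signals through Ror receptors (chromosome 14, 29318659 to 29338701), was at 28.8, 78.5 and 46.1 FPKM in the deleted libraries and at 28.1, 34.6, 23.8 and 18.2 in the wildtype libraries. Deleted replicate 1 lay below wildtype replicate 2. The means were 51.1 ± 25.2 (SD, n = 3) and 26.2 ± 6.88 (SD, n = 4), a difference of 0.86 (SE 0.34; limma p = 0.0341, exact permutation p = 0.114), which was 0.50 without deleted replicate 2. Wnt2b (chromosome 3, 104747723 to 104764627) was at 1.55, 5.87 and 4.27 FPKM in the deleted libraries and at 1.40, 2.02, 1.13 and 0.860 in the wildtype libraries. The libraries stood in the same order as for Wnt5a. The difference was 0.97 (SE 0.34; limma p = 0.0235, exact permutation p = 0.0571), and 0.67 without deleted replicate 2. The limma p was under 0.05 in 7 of 13 alternative fits for Wnt5a and in 8 of 12 for Wnt2b, and for both it was not without deleted replicate 2 or 3 or wildtype replicate 3 or 4. For Wnt5a it was also not with no filter or without wildtype replicate 1. The Wnt5a paralogue Wnt5b did not move with it: Wnt5b was at 3.95 to 4.83 FPKM in the deleted and 3.67 to 7.77 in the wildtype libraries, a difference of -0.22 (SE 0.21). Its locus overlaps that of Fbxl14 (8.98 to 14.5 FPKM), and the sources do not say whether counting used strand.

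The ureteric bud ligands had no difference beyond the spread between libraries. Wnt11, which marks the branching tips (chromosome 7, 105987355 to 106003257), was at 8.35, 6.81 and 8.63 FPKM in the deleted libraries and at 9.09, 5.66, 5.96 and 6.48 in the wildtype libraries. The difference was 0.21 (SE 0.17, 95% confidence interval -0.18 to 0.60), and 0.34 without wildtype replicate 1, with a limma p of 0.0459 before adjustment. Wnt7b, a ligand of the duct that shapes the medulla (chromosome 15, 85365867 to 85412251), was at 8.35, 7.11 and 4.24 FPKM in the deleted libraries and at 6.47, 8.18, 2.50 and 6.33 in the wildtype libraries. The lowest value was that of wildtype replicate 3, the library with the fewest ureteric bud transcripts, and the difference turned from 0.18 (SE 0.35) to -0.11 without it. Wnt9b (chromosome 11, 103588677 to 103611135) was at 6.11, 1.42 and 2.96 FPKM in the deleted libraries and at 3.84, 3.09, 1.79 and 6.13 in the wildtype libraries. The highest and the next highest values, 6.13 and 6.11, came from different genotypes. The difference was -0.13 (SE 0.42, 95% confidence interval -1.10 to 0.85), and 0.25 without deleted replicate 2. Intervals of this width leave room for differences of either sign.

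The other 9 ligands were low or absent, Wnt16 excepted. Wnt16, known from bone and joints, ranged from 4.10 to 15.8 FPKM in the deleted and from 2.95 to 9.19 in the wildtype libraries, a difference of 0.60 (SE 0.48). That difference was 0.25 without deleted replicate 2, 0.35 without wildtype replicate 4 and 1.11 without deleted replicate 1. Wnt2, a ligand of lung mesenchyme, Wnt9a, of forming joints, and Wnt7a, of limb ectoderm and the Müllerian duct, had means of 0.921 to 1.97 FPKM per genotype and differences of 0.43, 0.33 and 0.36. The remaining 5 were under the minimum. Wnt8b reached 0.792 FPKM at most and Wnt3 0.210. Wnt8a and Wnt3a were listed above 0 in 2 libraries each, by 1 inferred fragment. These ligands belong to the early body axis and nervous system.

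**Figure D2:**
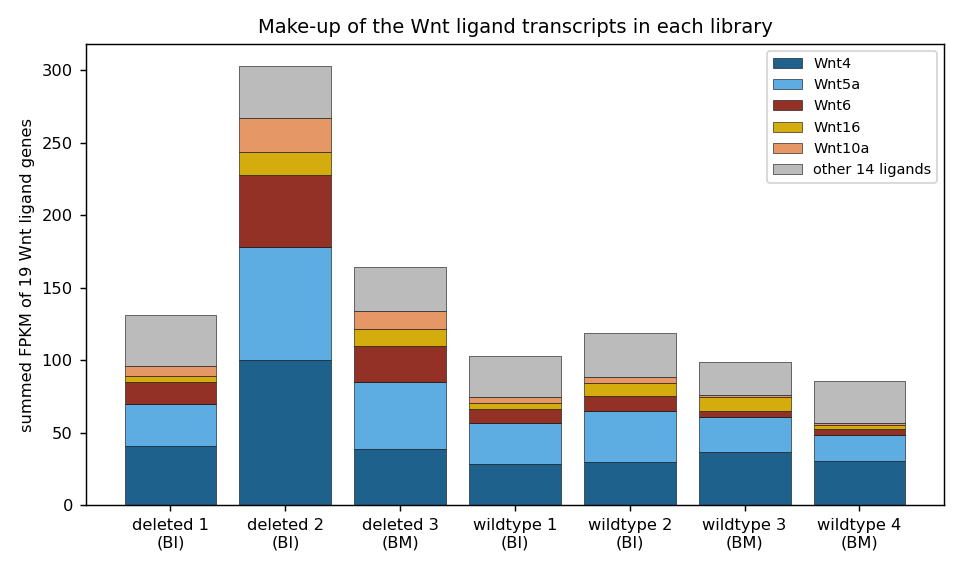
Summed FPKM of the 19 Wnt ligand genes in each library, as stacked bars from 0, with the 5 genes of highest mean in colour and the other 14 in grey. The sum is 303 in E2-2 deleted replicate 2, 131 and 165 in the other deleted libraries, and 85.6 to 119 in the wildtype libraries.

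Summed over the 19 ligands, transcripts came to 131, 303 and 165 FPKM with E2-2 deleted, against 103, 119, 99.1 and 85.6 with E2-2 wildtype. Wnt4 and Wnt5a together made up more than any other pair, 51.7% to 61.2% of the sum in every library, with overlapping shares in the 2 genotypes. The share of Wnt6 and Wnt10a was 16.7%, 24.1% and 22.7% with E2-2 deleted, against 13.3%, 12.9%, 6.48% and 6.36% with E2-2 wildtype. The sums are a description of these libraries. Wnt6 and Wnt10a were paired here for their large differences between the genotypes, so their separated shares are no further support.

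Among the receptors, Fzd10 alone had groups that did not overlap, with the deleted libraries higher. Of all genes tested, 2.84% separated in that direction and 2.05% in the opposite direction. Fzd10 (chromosome 5, 129106981 to 129109968) was at 18.9, 44.3 and 20.2 FPKM in the deleted libraries and at 13.3, 16.6, 7.15 and 8.51 in the wildtype libraries. Deleted replicate 1 was close to wildtype replicate 2, and the 2 BM wildtype libraries were lowest. The means were 27.8 ± 14.3 (SD, n = 3) and 11.4 ± 4.35 (SD, n = 4), a difference of 1.18 (SE 0.36, 95% confidence interval 0.34 to 2.02; limma p = 0.0119, adjusted p = 0.795, exact permutation p = 0.0571). Within BI it was 0.92, within BM 1.27, and with deleted replicate 2 left out 0.80. The limma p stayed under 0.05 in all 13 alternative fits, with an adjusted p of 0.388 to 1.00.

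The abundant Frizzled genes were at like levels in both genotypes. Fzd1, Fzd2 and Fzd7 are close relatives, and Fzd1 (chromosome 5, 4753839 to 4758216) had the highest mean. Fzd1 was at 42.6, 53.1 and 37.7 FPKM in the deleted libraries and at 38.0, 41.6, 52.1 and 39.4 in the wildtype libraries, a difference of 0.05 (SE 0.15, 95% confidence interval -0.31 to 0.41). Fzd7 (chromosome 1, 59538991 to 59543799) was at 31.6, 31.0 and 28.4 against 29.6, 33.4, 48.2 and 35.7 FPKM, a difference of -0.25 (SE 0.16). Fzd2 (chromosome 11, 102465745 to 102469372) was at 35.9, 25.9 and 29.4 against 32.5, 24.7, 45.1 and 40.8 FPKM, a difference of -0.21 (SE 0.21). For Fzd7 and Fzd2 the high values were those of the BM wildtype libraries, which were the low ones for Fzd10. The differences of Fzd7 and Fzd2 within BI were accordingly -0.01 and 0.10, and within BM -0.53 and -0.53.

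Fzd3, which takes part in planar polarity and axon growth (chromosome 14, 65811278 to 65881300), had the most negative difference of the Frizzled genes. It was at 9.19, 5.98 and 9.09 FPKM in the deleted libraries and at 8.79, 8.76, 11.2 and 11.9 in the wildtype libraries, a difference of -0.30 (SE 0.18; limma p = 0.127, exact permutation p = 0.286). Without deleted replicate 2 it was -0.13. Fzd4, the Norrin receptor of blood vessels, was at 28.1 to 30.5 FPKM in 6 libraries and at 15.7 in deleted replicate 2, so that its difference of -0.29 (SE 0.21) was -0.01 without that library. Fzd6 was at 6.15 to 18.6 FPKM and lowest in wildtype replicate 3. Fzd8 and Fzd5 were at 1.66 to 4.83 FPKM with differences of -0.18 and 0.05, and Fzd9 was under the minimum at 0.323 to 0.467 FPKM.

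**Figure D3:**
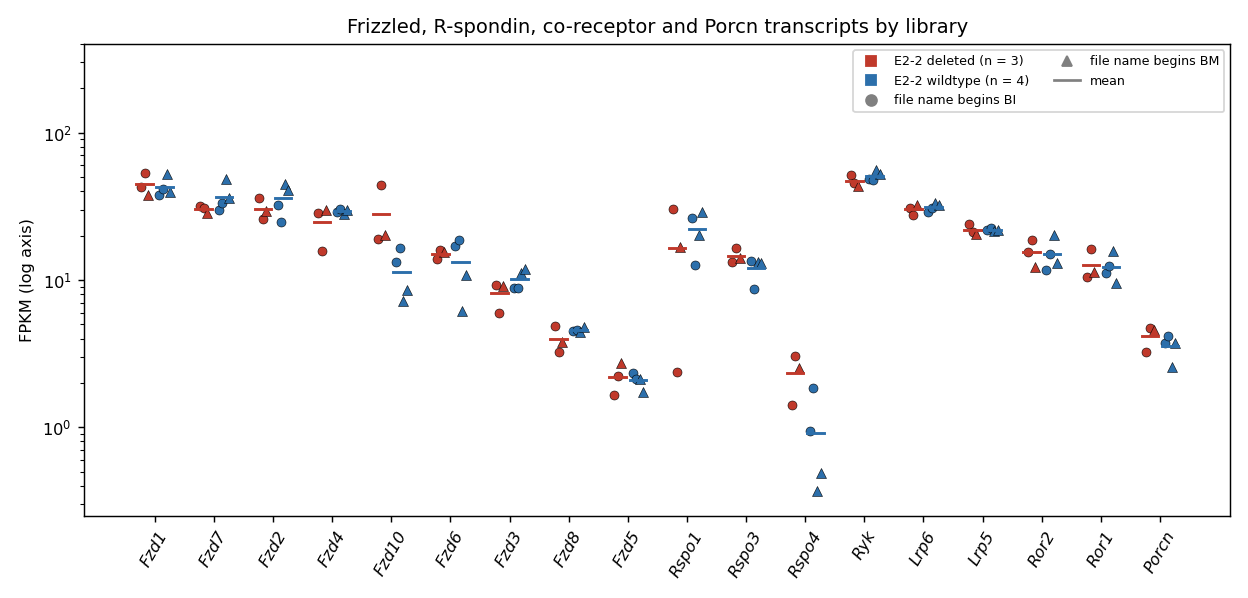
FPKM on a log axis of the 18 tested receptor, R-spondin and Porcn genes. Each point is a library (red, E2-2 deleted; blue, E2-2 wildtype; circles and triangles, file names that begin with BI and BM) and each bar a group mean. Fzd10 is separated by genotype, Rspo1 has 1 deleted library at 2.38 FPKM, and Lrp5, Lrp6 and Ryk lie in tight groups.

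The R-spondins went different ways. Rspo4, known for nail growth (chromosome 2, 151668663 to 151700404), was at 1.42, 3.06 and 2.52 FPKM in the deleted libraries and at 0.943, 1.84, 0.369 and 0.487 in the wildtype libraries. Deleted replicate 1 lay below wildtype replicate 2. The difference was 0.83 (SE 0.31; limma p = 0.0269, exact permutation p = 0.0857), 0.42 within BI and 1.30 within BM. The limma p was under 0.05 in 8 of 12 alternative fits, and not without deleted replicate 2 or 3 or wildtype replicate 3 or 4. Rspo1, an R-spondin of the gonad and kidney (chromosome 4, 124663674 to 124686343), was at 30.3, 2.38 and 16.8 FPKM in the deleted libraries and at 26.4, 12.6, 20.2 and 29.1 in the wildtype libraries. The level of 2.38 in deleted replicate 2 was far below the next lowest, 12.6. In that library Six2 and Cited1, markers of nephron progenitors, were at 2.69 and 3.60 FPKM against 26.6 to 76.8 elsewhere. The progenitor markers Eya1, Meox1 and Sall1 were also lowest there, Sall1 at 26.0 FPKM against 34.1 to 58.8. Osr1 was not, at 9.26 FPKM there against 7.23 in wildtype replicate 2. The difference of Rspo1 was -0.84 (SE 0.70, 95% confidence interval -2.45 to 0.77) and turned to 0.10 without deleted replicate 2. The part of a loss of progenitor transcripts in this value was not tested. Rspo3 (chromosome 10, 29172913 to 29255673) was at 13.2, 16.5 and 14.1 FPKM in the deleted libraries and at 13.4, 8.69, 13.3 and 13.0 in the wildtype libraries, a difference of 0.27 (SE 0.17). Rspo2 did not reach 1 FPKM in any library.

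The co-receptors were the steadiest members. Lrp5 (chromosome 19, 3584825 to 3686564) was at 23.8, 21.2 and 20.4 FPKM in the deleted libraries and at 21.7, 22.6, 21.7 and 21.8 in the wildtype libraries, a difference of -0.01 (SE 0.09, 95% confidence interval -0.22 to 0.19). Lrp6 (chromosome 6, 134396496 to 134516931) was at 31.0, 27.4 and 32.1 against 29.0, 30.7, 33.5 and 32.1 FPKM, a difference of -0.05 (SE 0.10, 95% confidence interval -0.28 to 0.17). Lrp6 exceeded Lrp5 in all 7 libraries, by 1.29 to 1.58 times. Ryk, a receptor with an inactive kinase domain (chromosome 9, 102737250 to 102810637), was at 51.5, 45.4 and 43.6 against 48.1, 47.3, 55.4 and 52.7 FPKM, a difference of -0.12 (SE 0.10). The coefficients of variation of Lrp5, Lrp6 and Ryk over the 7 libraries were 4.97%, 6.70% and 8.54%, where those of Wnt6, Wnt10a and Wnt10b were 94.9%, 99.5% and 103%.

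Ror1 and Ror2, receptors of Wnt5a, differed by 0.05 (SE 0.20) and 0.05 (SE 0.21). Their levels were 9.47 to 16.1 and 11.6 to 20.3 FPKM, and both were high in deleted replicate 2 and wildtype replicate 3. Porcn (chromosome X, 7770976 to 7783651) was at 3.26, 4.68 and 4.59 FPKM in the deleted libraries and at 3.74, 4.13, 2.58 and 3.74 in the wildtype libraries, with overlap. Its difference was 0.19 (SE 0.18, 95% confidence interval -0.23 to 0.60).

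**Figure D4:**
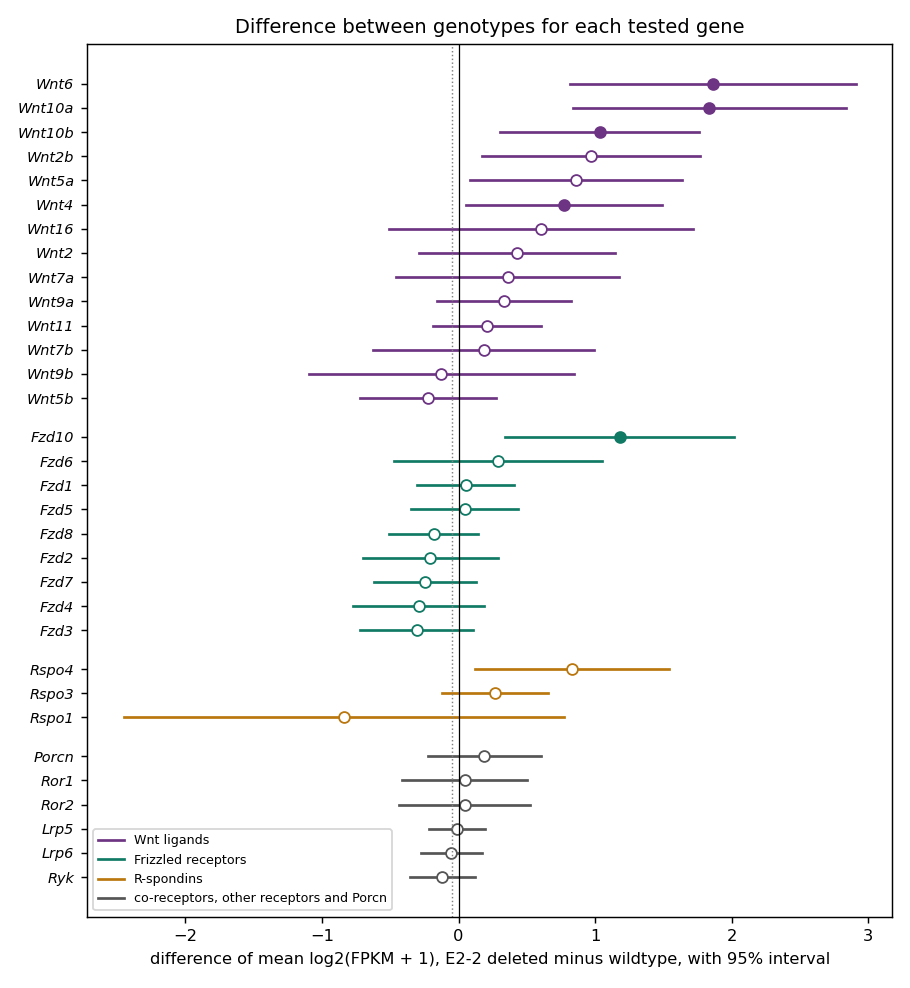
Difference of mean log2(FPKM + 1), E2-2 deleted minus wildtype, for the 32 tested genes, with 95% confidence intervals from limma. Filled points are genes whose groups do not overlap, the solid line is 0 and the dotted line is the median of all genes tested, -0.05. The interval lies above 0 for 6 ligands, Fzd10 and Rspo4, and below 0 for none.

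By role, the median difference was 0.52 for the 14 ligands tested, -0.18 for the 9 Frizzled genes, 0.27 for the 3 R-spondins and 0.02 for the 6 co-receptors, other receptors and Porcn, beside -0.05 for all 13466 genes tested. A positive difference was found in 12, 4, 2 and 3 of them, against 39.3% of all genes tested. A limma p under 0.05 was found in 6, 1, 1 and 0 of them, or 25% of the 32 members tested, against 4.49% of all genes tested. The other 7 members were under the minimum. With limma, 0 of the 13466 genes and 0 of the 32 members passed after adjustment, and 605 genes had a p under 0.05 before it. The count of 8 members was 4 without deleted replicate 2 (Wnt4, Wnt6, Wnt10a and Fzd10), where 1.72% of all genes were called. It was 4 without wildtype replicate 4, 5 without deleted replicate 3 and 5 without wildtype replicate 3, where 2.57%, 4.09% and 3.33% were called. It was 9 without deleted replicate 1 and 7 without wildtype replicate 1 or 2, where 10.9%, 4.42% and 5.57% were called. At a minimum of 5 FPKM it was 5 of 21, with 3.77% of all genes. The highest value lay in deleted replicate 2 for 9 of 14 ligands, against 17.2% of all genes tested.

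Other genes of the pathway were read as lists, and these too held no gene past the adjusted threshold. Of all genes tested, 39.3% had a positive difference and 4.49% a p under 0.05. Among the partners of Wnt secretion and of the receptors, 12 of 13 had a positive difference and 4 a p under 0.05. The R-spondin receptor gene Lgr6 was at 3.19, 14.2 and 5.27 FPKM against 2.50, 3.16, 1.48 and 1.34, a difference of 1.28 (SE 0.43). Tspan12, a partner of Fzd4, differed by 0.65 (SE 0.24), and Znrf3, a ligase that removes Frizzled from the membrane, by 0.60 (SE 0.24). Lgr5, another R-spondin receptor gene, differed by 0.46 (SE 0.19). Without deleted replicate 2, Lgr6 differed by 0.76 and Znrf3 by 0.35. Of 14 secreted inhibitors tested, 8 were positive and 4 had a p under 0.05: Wif1, Notum, Apcdd1 and Frzb, a decoy related to Frizzled, which differed by 0.77 (SE 0.31). Without deleted replicate 2, Frzb differed by 0.34, Notum by 0.82 and Apcdd1 by 0.78. Of the 18 targets and effectors of beta-catenin tested, 16 were positive and 10 had a p under 0.05. These counts are not separate from those of the other lists, which also hold Axin2, Lgr5, Rnf43, Znrf3, Notum, Dkk1, Wif1 and Apcdd1. Axin2, Lgr5, Znrf3, Notum, Wif1 and Apcdd1 were among the 10. In the cytoplasmic relay 9 of 16 were positive and only Axin2, itself a target, had a p under 0.05. Axin2 and Ctnnb1 were the 2 of 16 relay genes with every deleted library above every wildtype library, against 2.84% of all genes tested. The same separation was found in 4 of the 13 partners, 4 of the 14 inhibitors and 10 of the 18 targets, lists that share genes. The difference of Axin2 was 1.17, and 0.70 without deleted replicate 2. In planar cell polarity 7 of 14 were positive and only Prickle1 had a p under 0.05. The Prickle1 difference was 0.39 (SE 0.16), and 0.20 without deleted replicate 2. The called shares of these last lists, 6.25% and 7.14%, are near the 4.49% of all genes tested. The lists were put together with earlier results of these data known.

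Of the lists of markers of other tissues, 2 had sums without overlap between the genotypes: tooth and skeletal muscle. The tooth list (Amelx, Ambn, Enam, Klk4 and Dspp) summed to 25.6, 34.7 and 41.5 FPKM in the deleted libraries and to 14.6, 5.66, 2.78 and 0.712 in the wildtype libraries. All 3 of its tested members had a p under 0.05, against 4.49% of all genes tested, while Amelx was at 0 in 6 libraries. The skeletal muscle list summed to 22.6, 111 and 37.4 against 16.4, 16.1, 10.4 and 14.96 FPKM. Mybpc1 made up 102 of the 111 FPKM in deleted replicate 2, and the muscle factor gene Myod1 was at 0.326 FPKM or less in every library. The neural crest, glia and melanocyte list ranged from 29.3 to 109 FPKM in the deleted and from 6.51 to 35.9 in the wildtype libraries. The groups overlapped, with wildtype replicate 1 above deleted replicate 1. All 9 of its members tested were positive, 5 with a p under 0.05, against 39.3% and 4.49% of all genes tested. The sums of the osteoblast and cartilage, macrophage, endothelial, liver and gut, and somite lists overlapped as well. Of 7 osteoblast and cartilage genes tested, 5 were positive and 3 (Sp7, Ibsp and Alpl) had a p under 0.05, beside the same shares. Col2a1 and Sox9 were negative. All 6 macrophage genes tested were positive, 0 with a p under 0.05. Of 7 endothelial genes, 4 were positive and 2 had a p under 0.05, Tek higher and Gja4 lower. The sum of the endothelial list was highest in wildtype replicate 1, though not every gene of it was. That of the liver and gut list was highest in wildtype replicate 2, where Alb was at 0. Of the 2 liver and gut genes tested, 0 were positive. The part of these cells in the levels of Wnt6, Wnt10a, Wnt10b, Fzd10 and Rspo4 was not tested. The tooth sum was highest in deleted replicate 3, as were Enam and Dspp, while Ambn, Klk4 and Amelx were highest in deleted replicate 2. The 5 Wnt pathway genes were highest in deleted replicate 2, as was Axin2.

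**Figure D5:**
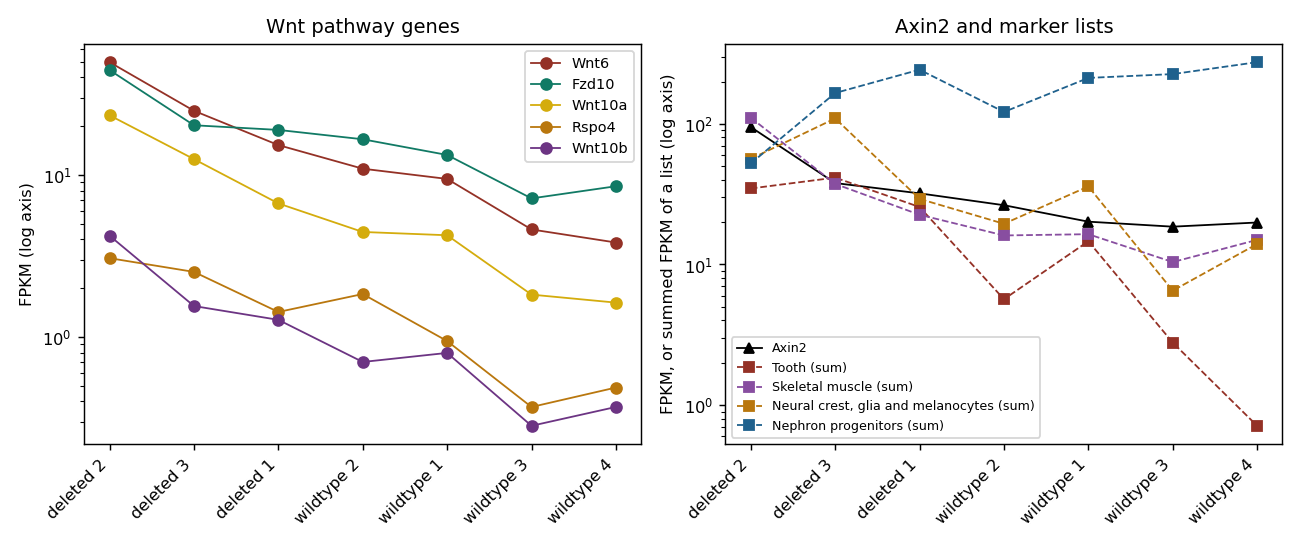
FPKM on log axes in the 7 libraries, ordered by Wnt6: left, Wnt6, Wnt10a, Wnt10b, Fzd10 and Rspo4; right, Axin2 and the summed FPKM of 4 marker lists. Lines join the values of a gene or list and imply no order in time. Nephron progenitor markers are lowest, at 52.3, in the library where the 5 genes are highest.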

How the data were processed

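RNA of 7 cultured fetal kidneys was sequenced after poly-A selection into TruSeq libraries, per the labels' protocols. For each library the authors deposited FPKM values and their intervals for 23699 entries, per the file headers. The submitters' processing notes list Cufflinks 2.0.2, TopHat2 2.0.4 and CASAVA 1.8.2 and give no roles. No genome build or annotation is named in the labels or headers used here. Entries of one symbol were summed, though each member had 1 entry. In E2-2 deleted replicate 2, 25 symbols had been altered and were taken from another table. Small RNAs and genes without a usable Cufflinks status were left out. Of 22367 genes, 13466 with a mean of at least 1 FPKM were tested as log2(FPKM + 1) with limma 3.58.1 in R 4.3.3 (empirical Bayes with trend, 2-sided, threshold 0.05 after Benjamini-Hochberg adjustment over these genes). An exact permutation test (2-sided, 35 splits) was run for the tested members and listed genes, not for all 13466 genes, and its smallest p is 0.0286. Fragments were inferred from the intervals as the square of 2 times the FPKM over its distance to the upper bound; 78.9% to 80.2% of those under 300 for genes with 1 start were whole to within 0.05, where chance gives 10%. The fit was tested on simulated data. Alternatives were no filter, a minimum of 5 FPKM, a pseudocount of 0.1, median-of-ratios scaling, the BI and BM letters as a term, a weight per library, and leaving out each library. Replicate numbers follow the order of deposit and pair nothing. The labels do not say that libraries came from separate animals or cultures, so p-values reflect only how these samples vary, which may be technical. Values in every library are given for Wnt2b, Wnt4, Wnt5a, Wnt7b, Wnt9b and Wnt11, for the 3 most abundant members of each role, for those without overlap and for the 2 of smallest p in each role. The members, lists and tests were chosen with earlier results of these data known.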

Additional observations from a re-analysis of the deposited data

Results flagged for a closer look

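Among the 4 E2-2 wildtype libraries, 1 library stood far from the other 3 for 3 of the 37 members with any spread, where chance gives about 1 in 20. Rspo3 was at 8.69 FPKM in wildtype replicate 2 against 13.0 to 13.4 in the others. Lrp5 was at 22.6 FPKM in wildtype replicate 2, within a range of less than 1 FPKM. Wnt3a was listed at 0.0212 FPKM in wildtype replicate 1, by 1 inferred fragment, and at 0 in the others. A gene above 0 in only 1 of these libraries is flagged at any level, so the chance rate does not apply to Wnt3a. The group of 3 deleted libraries is too small for this check.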

How the results depend on the processing

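The count of members with a limma p under 0.05 was 8 with all libraries and 5 at a minimum of 5 FPKM, where 21 members were tested; leaving out 1 library in turn gave 4 to 9. The count of genes past an adjusted p of 0.05 was 0, but 4 with no filter and 1 with a weight per library, and 0 in each fit that left out a library. These 5 genes (Gm10640, Ndufs5, Pgc, Tmprss11bnl and 9130015A21Rik, named after their values were seen) include no member. Of 181 single-member differences under the other planned settings, 5 changed sign: with a weight per library Wnt7b was at -0.29, Fzd1 at -0.032, Lrp6 at 0.060 and Ror2 at -0.019, and with median-of-ratios scaling Lrp5 was at 0.024. The cause was not tested. Leaving out a library changed the sign of 17 of 221 differences, with ranges of -0.11 to 0.43 for Wnt7b, -0.53 to 0.25 for Wnt9b, -0.081 to 0.16 for Fzd1, -0.0046 to 0.48 for Fzd6, -0.068 to 0.17 for Fzd5, -1.51 to 0.10 for Rspo1, -0.099 to 0.011 for Lrp6, -0.074 to 0.033 for Lrp5, -0.094 to 0.20 for Ror2 and -0.13 to 0.17 for Ror1. No paired analysis was possible because the labels give no replicate numbers. Low members were limited by depth, with 15 inferred fragments behind the lowest Wnt10b value.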
